A study of Mus musculus with 6 samples.

Results

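The nuclear genes for the respiratory chain and the ATP synthase were followed on 6 arrays of mPAC L20 cells. Members were the genes whose single symbol begins with Nduf, Uqcr, Cox4, Cox5, Cox6, Cox7, Cox8 or Atp5, or is Sdha, Sdhb, Sdhc or Sdhd. This took 179 probe sets and 90 of the 18193 genes measured, and a gene with several probe sets was read by the one brightest on average over the 6 arrays. Of these, 6 encode core subunits of complex I, 28 its accessory subunits, 8 its assembly factors, 4 complex II, 8 complex III, 19 complex IV and 17 complex V. The 82 members that are not assembly factors include tissue-restricted isoforms and Cox7a2l, a factor of supercomplexes. A further 10 probe sets with these symbols carried several symbols and named no gene.

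mPAC L20 is a mouse pancreatic duct line. Every sample was infected with an adenovirus in which the CMV promoter drives Neurog3, the factor that starts endocrine differentiation, so no comparison with cells lacking Neurog3 was made here. Before that, 3 samples received a virus with a scrambled hairpin (shControl) and 3 a virus with a hairpin against the transcription factor Atoh8 (shAtoh8), each virus at a multiplicity of infection of 40. RNA came from cultures kept for a further 44 to 46 h, and the replicates were 3 independent experiments. The hairpin came from a single virus, so its own side effects and the loss of Atoh8 cannot be told apart.

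Electrons from NADH enter the chain at complex I and those from succinate at complex II. They pass through coenzyme Q, complex III and cytochrome c to complex IV, which reduces oxygen. Complexes I, III and IV pump protons out of the mitochondrial matrix, and complex V lets them back to make ATP. Most subunits are encoded in the nucleus, and a few complex IV subunits exist as ubiquitous and tissue-restricted isoforms.

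Levels are log2 signals, and a difference of 1 is a doubling. Atoh8 itself read 8.75, 8.29 and 7.52 in shControl and 7.83, 7.90 and 7.37 in shAtoh8, a log2 fold change of -0.49 ± 0.30 (SE, n = 3 each) that did not pass (limma adjusted p = 0.573, and 0.157 with the replicate number as a block). The 6 array medians lay between 5.49 and 5.56. The shAtoh8 replicate 2 array had a 3'-to-5' gap of actin probe sets of 0.354, against 0.107 to 0.202 on the others. Of 9 measured duct markers, Krt8, Krt18, Krt19, Krt7, Cdh1, Sox9, Muc1 and Epcam averaged between 7.31 and 13.91 in the groups, and Cftr averaged 3.70 and 3.72. Group means of the 6 leukocyte markers ran from 3.59 (Ptprc) to 6.81 (Cd68), those of the 5 endothelial markers from 3.53 (Emcn) to 5.54 (Kdr), and those of the 8 fibroblast markers from 3.57 (Col3a1) to 6.91 (Pdgfra). The 7 measured acinar markers had group means from 3.85 (Cela2a) to 8.82 (Cela1), and the 9 endocrine markers from 3.05 (Gcg) to 7.76 (Iapp). Of the 44 measured markers of 6 cell types, Epcam (-0.73, adjusted p = 0.145, and 0.0463 with the block) and Iapp (-1.78, 0.0965 and 0.0189) passed with the replicate block on their brightest probe sets, and on those 0 of the 44 passed without it (limma; 4 at an unadjusted p under 0.05). Of the 4 Iapp probe sets, all of the same sign, 2 passed without the block. Epcam had 2 probe sets, and the dimmer one did not share the negative sign.

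The upstream sequences of 4 members are shown because their genes gave the largest differences or stand opposite one of them. Cox7a1 had the lowest value of all members, Cox7a2 encodes the ubiquitous form of the same subunit, and Atp5pb and Ndufb7 had the highest values. Each run is the 250 bases before the annotated start in RefSeq on GRCm38.p6, from 5′ to 3′. The positions are chr7:30183921-30184170, plus strand, for Cox7a1, chr9:79759854-79760103, minus strand, for Cox7a2, chr3:105959264-105959513, minus strand, for Atp5pb and chr8:83566508-83566757, plus strand, for Ndufb7. Capitals mark CANNTG, the E-box bound by basic helix-loop-helix factors such as Atoh8 and Neurog3, and in Ndufb7 also CCGGAAG, the motif of ETS factors.
Cox7a1: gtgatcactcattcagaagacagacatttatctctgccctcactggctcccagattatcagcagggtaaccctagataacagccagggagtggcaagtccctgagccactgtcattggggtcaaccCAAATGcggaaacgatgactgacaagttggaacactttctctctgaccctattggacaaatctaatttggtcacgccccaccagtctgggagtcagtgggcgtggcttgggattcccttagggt
Cox7a2: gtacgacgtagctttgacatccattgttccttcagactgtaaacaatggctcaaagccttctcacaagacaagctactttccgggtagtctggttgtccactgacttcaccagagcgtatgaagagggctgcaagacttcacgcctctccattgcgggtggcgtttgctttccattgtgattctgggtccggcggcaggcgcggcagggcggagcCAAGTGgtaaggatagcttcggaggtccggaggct
Atp5pb: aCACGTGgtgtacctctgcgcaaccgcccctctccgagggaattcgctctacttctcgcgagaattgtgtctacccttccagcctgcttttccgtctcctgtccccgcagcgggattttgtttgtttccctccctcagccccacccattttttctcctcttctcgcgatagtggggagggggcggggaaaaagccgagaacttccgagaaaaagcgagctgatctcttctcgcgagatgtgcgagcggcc
Ndufb7: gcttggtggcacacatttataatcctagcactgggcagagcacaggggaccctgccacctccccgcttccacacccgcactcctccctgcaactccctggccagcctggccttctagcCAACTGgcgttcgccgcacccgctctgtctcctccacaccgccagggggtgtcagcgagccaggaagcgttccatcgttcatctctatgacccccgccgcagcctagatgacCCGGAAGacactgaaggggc

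Each of the 4 windows held 1 E-box match. A window was found for 74 of the 90 members, and 49 of them (66.2%) held an E-box on either strand, as did 66.1% of the 27025 genes with a window. The ETS motif CCGGAAG, read by the respiratory gene regulator GABP, was present in 13 of 74 members (17.6%) and in 7.07% of those 27025 genes. That set was not limited to the genes measured on the arrays. The 10-base palindrome of NRF1, the other classical regulator of respiratory genes, was present in 4 members (5.41%), Atp5g2, Atp5k, Cox6a1 and Ndufaf4. It was present in 0.777% of the 27025 genes. All 3 motifs were searched on both strands and separately, so matches may share bases. A match describes the letters of the window and is not a measured binding site.

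No respiratory gene passed the test when the Atoh8 hairpin replaced the scrambled one (limma over all probe sets, 0 of 90 in either direction, against 0.517% of genes called higher and 0.638% called lower), and 10 had an unadjusted p under 0.05. Of these 10, 7 were higher (7.78%, against 8.72% of genes) and 3 were lower (3.33%, against 8.82%). At a mean level of 10 or more, 7 of 70 members had an unadjusted p under 0.05 in either direction, against 569 of 2289 genes. With the replicate number as a block, 1 member fell and 0 rose, against 2.75% of genes lower and 1.92% higher. That member was Cox7a1, the heart and skeletal muscle isoform of a complex IV subunit. The arrays read RNA of whole cultures, in which fewer cells of a type and less RNA per cell cannot be told apart.

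Fold changes of the members were small, with a median absolute log2 value of 0.084 against 0.106 over all genes. In 76 of 90 members the value lay within 0.2 of 0, and in 7 it lay beyond 0.3 (Cox7a1, Ndufaf6, Atp5pb, Ndufb7, Cox7c, Ndufa5 and Sdha). The 95% interval of the difference stayed inside 1.5-fold either way for 82 members (91.1%, against 81.5% of genes). The 8 whose interval reached past that bound were Cox7a1, Ndufaf6, Ndufb7, Ndufa5, Ndufaf1, Ndufaf4, Cox7c and Atp5pb. For the 70 members with a mean level of 10 or more, the median absolute value was 0.092, and for the 2289 genes of that level 0.137.

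**Figure D1:**
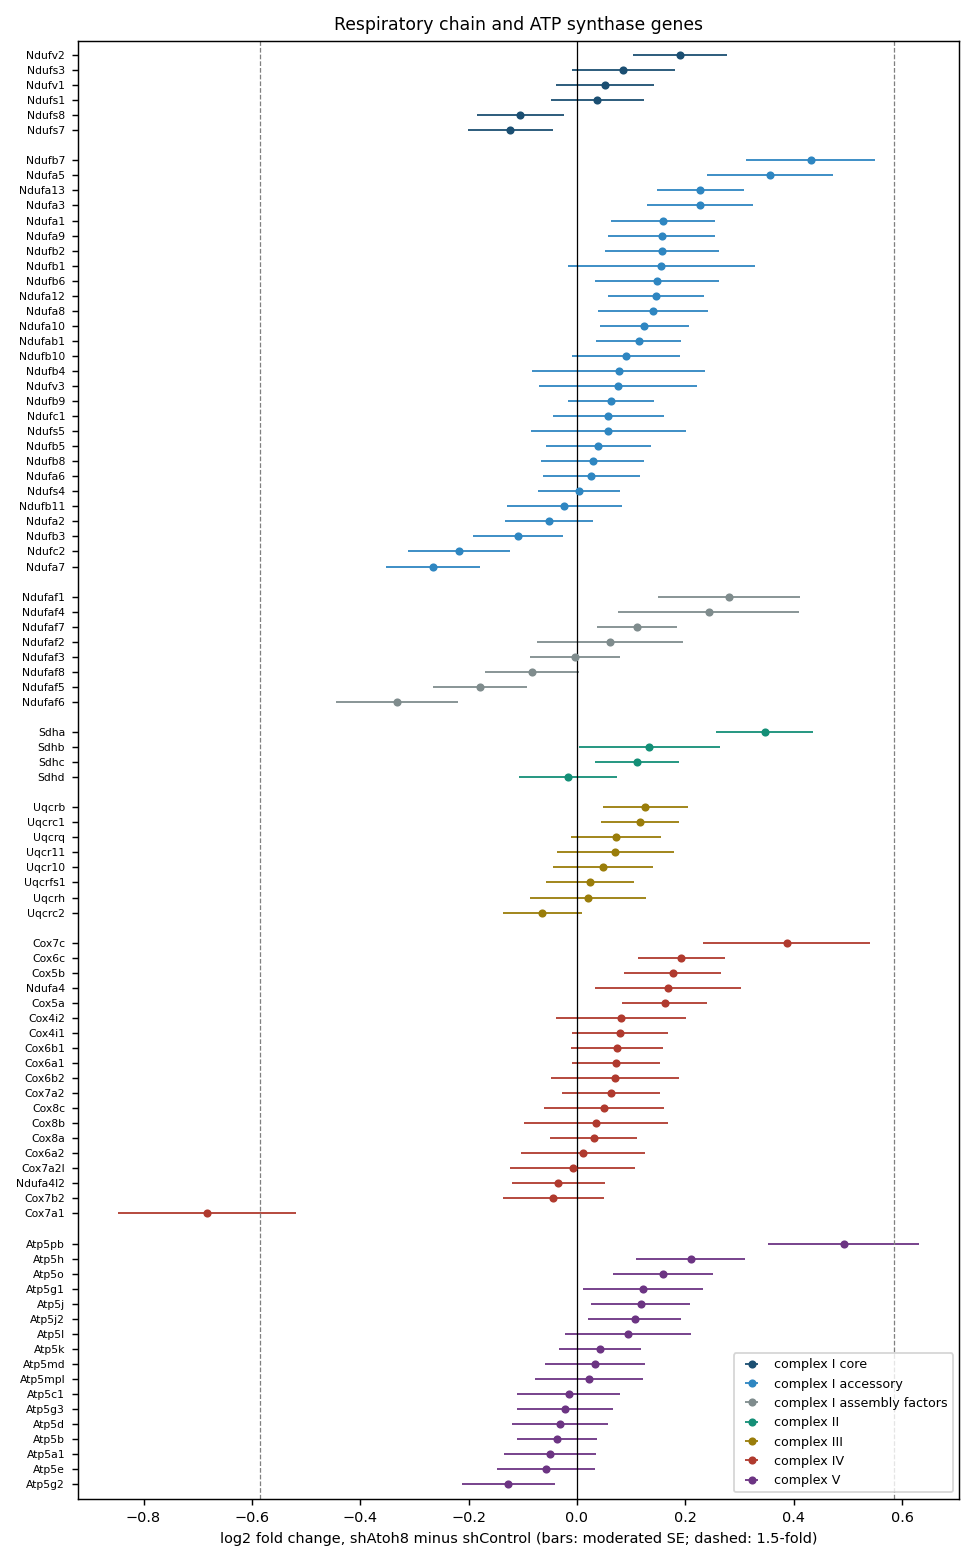
Log2 fold change of each of the 90 members (shAtoh8 minus shControl, x axis) with limma's moderated standard error, grouped and coloured by complex and ordered by value within each; dashed lines mark 1.5-fold. Most points lie between -0.2 and 0.2, while Cox7a1 stands at -0.68 and Atp5pb at 0.49.

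The small values leaned upward. Of 90 members, 66 had a positive fold change (73.3%, against 53.1% of genes), with a median of 0.07 against 0.01 over all genes. In 19 members all shAtoh8 arrays lay above all shControl arrays (21.1%, against 12.6% of genes), and in 8 they lay below (8.89%, against 11.4%). All 3 pairs of the same replicate number were higher for 35 members (38.9%, against 24.0% of genes) and lower for 12 (13.3%, against 21.7%). Bright genes as a whole were separated more often than all genes. Of the 70 members with a mean level of 10 or more, 17 were separated higher and 5 lower. For the 2289 genes of that level the counts were 457 and 366. All 3 pairs were higher for 30 of these 70 members and lower for 8, against 762 and 681 of the 2289 genes. The 8 separated members that were lower were Cox7a1, Ndufa7, Ndufc2, Ndufaf5, Ndufaf6, Ndufs7, Ndufs8 and Uqcrc2.

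This lean was seen in replicates 2 and 3 and not in replicate 1, and its size depended on which shControl array was left out. The median difference of the members was -0.01 in replicate 1, 0.06 in replicate 2 and 0.13 in replicate 3, while the medians over all genes were -0.01, 0.00 and 0.03. The members higher in shAtoh8 numbered 41 (45.6%), 64 (71.1%) and 67 (74.4%), against 48.6%, 50.7% and 55.1% of genes. The shControl replicate 3 array gave the lowest of the 6 readings for 54 members (60.0%), against 25.8% of genes. Measured from each member's own mean, the median deviation was -0.12 on that array, 0.05 and -0.03 on shControl replicates 1 and 2, and 0.05, 0.04 and 0.02 on the shAtoh8 arrays. Without shControl replicate 3 the median of the members was 0.02 with 51 of 90 positive, and without shControl replicate 1 it was 0.12 with 72 positive. The array weight from limma was lowest on shControl replicate 3, at 0.652 against 0.765 to 1.36 on the others. With these weights the median of the members was 0.05, and that of all genes 0.01. By class, the median without shControl replicate 3 was 0.04 for the accessory subunits of complex I, 0.03 for complexes III and IV, -0.02 for complex V and 0.15 for complex II. The part of this array in the upward lean beyond those values was not tested.

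**Figure D2:**
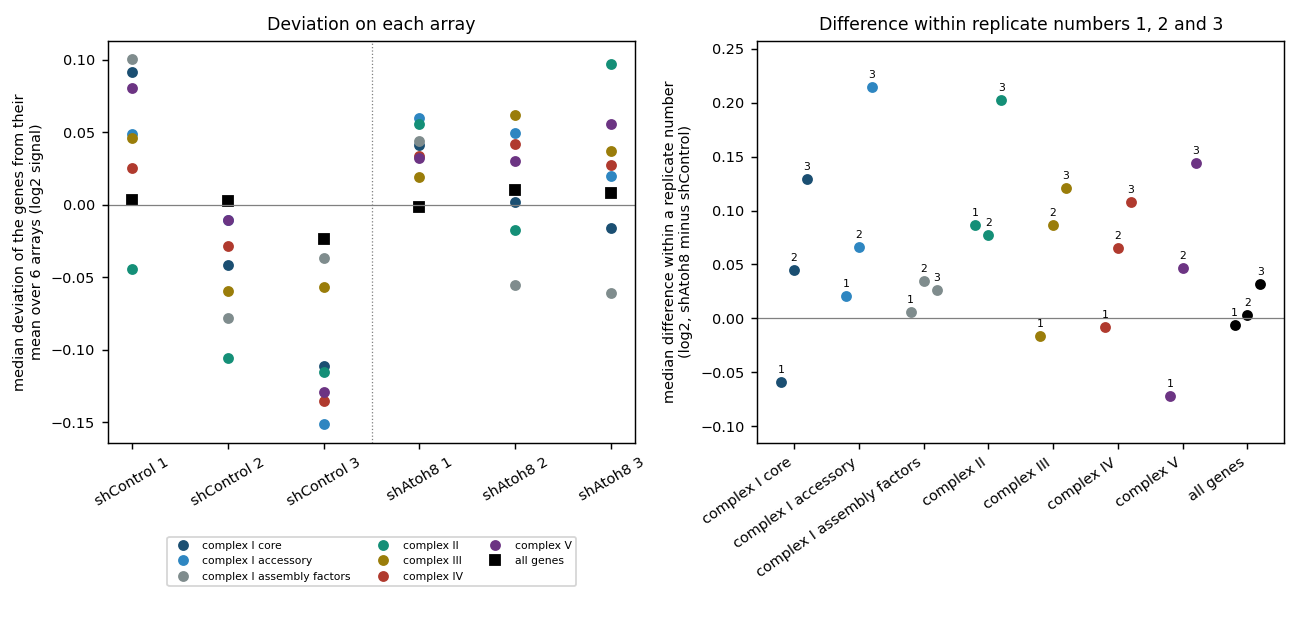
Left, median deviation of each class's genes from their own mean over the 6 arrays (log2 signal), with all 18193 genes as black squares. Right, median difference within replicate numbers 1, 2 and 3 for each class. On shControl 3 every class lies below 0, and the accessory subunits of complex I lie lowest at -0.15.

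Complex I accepts electrons from NADH through its core subunits. Of the 6 core members 4 were positive and 2 negative, with a median of 0.04 and pair medians of -0.06, 0.04 and 0.13. Ndufv2, a subunit of the NADH-binding module, read 11.73, 11.64 and 11.52 in shControl and 11.82, 11.87 and 11.76 in shAtoh8, so the groups were separate by a small margin. Its fold change was 0.19 ± 0.09 (SE; limma adjusted p = 0.399). Ndufs7 and Ndufs8, iron-sulphur subunits next to the coenzyme Q site, lay on the other side of 0. Ndufs7 read 10.47, 10.37 and 10.45 in shControl and 10.36, 10.31 and 10.25 in shAtoh8 (-0.12 ± 0.08, adjusted p = 0.586). Ndufs8 was at -0.10 ± 0.08 (0.673), and all 6 of its probe sets were negative. Ndufs3 (0.09), Ndufv1 (0.05) and Ndufs1 (0.04) lay close to 0.

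The accessory subunits, which surround the core, held the widest spread within complex I. Of 28 measured, 23 were positive and 5 negative, with a median of 0.08 and pair medians of 0.02, 0.07 and 0.21, and 0 passed limma (4 at an unadjusted p under 0.05). Ndufb7, of the membrane arm, read 10.87, 10.74 and 10.46 in shControl and 11.05, 11.22 and 11.10 in shAtoh8. All shAtoh8 arrays were higher, and the shControl replicate 3 array was the lowest of the 6. The difference was 0.43 ± 0.12 (SE; limma adjusted p = 0.160, and 0.0987 with the block), and its other probe set gave 0.37. Ndufa5, of the matrix arm, read 10.26, 10.06 and 9.90 against 10.54, 10.30 and 10.45, again without overlap. Its fold change was 0.36 ± 0.12 (0.222), with 0.28 on its other probe set. Ndufa13, known also as GRIM-19, was at 0.23 ± 0.08 (adjusted p = 0.259).

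Ndufa7 and Ndufc2 differed in the other direction from most accessory subunits, on several probe sets each. Ndufa7 read 12.32, 12.19 and 12.16 in shControl and 11.93, 12.05 and 11.89 in shAtoh8. The groups did not overlap, the difference was -0.27 ± 0.09 (SE; limma adjusted p = 0.225), and all 5 of its probe sets were negative. Ndufc2, of the membrane arm, read 11.83, 11.78 and 11.68 against 11.62, 11.61 and 11.40 on its brightest probe set (-0.22 ± 0.09, adjusted p = 0.373). On its next 2 probe sets the values were larger, at -0.36 ± 0.09 (0.114) and -0.40 ± 0.09 (0.113), and the dimmest gave 0.04. Ndufb4 was read by a probe set with a mean of only 4.16 (0.08 ± 0.16), so its value carries little information on the subunit.

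The complex I assembly factors, proteins that build the enzyme without staying in it, were evenly divided. Of 8, 4 were positive and 4 negative, with a median of 0.03 that took either sign when single arrays were left out (-0.046 to 0.086). Ndufaf6 read 7.13, 7.03 and 7.33 in shControl and 6.94, 6.68 and 6.88 in shAtoh8. All 3 pairs were lower and the groups did not overlap, with a difference of -0.33 ± 0.11 (SE; limma adjusted p = 0.243). Ndufaf5, which modifies Ndufs7 during assembly, was at -0.18 ± 0.09 (0.434). Ndufaf1 stood on the other side at 0.28 ± 0.13 (0.416), where shControl replicate 3 (8.33) was the lowest array, and Ndufaf4 at 0.24 ± 0.17 (0.626) with overlapping groups. The dimmer probe set of Ndufaf4 gave 0.40 ± 0.14 (0.246) without overlap. Ndufaf8 was at -0.08 ± 0.09 (0.782) with overlap, and its dimmer probe set at -0.28 ± 0.08 (0.189) without overlap.

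Complex II, the succinate dehydrogenase shared with the citric acid cycle, had the highest class median at 0.12, over 4 genes, with pair medians of 0.09, 0.08 and 0.20. Without shAtoh8 replicate 3 that median was 0.06. Sdha, the flavoprotein that oxidises succinate, read 10.97, 10.89 and 10.77 in shControl and 11.20, 11.30 and 11.17 in shAtoh8. All shAtoh8 arrays were higher, by 0.35 ± 0.09 (SE) or 1.27-fold, which missed the threshold (limma adjusted p = 0.137, and 0.0926 with the block). Its second probe set gave 0.26 ± 0.09 (0.259). Its other probe sets were dim, with means of 4.32 and 4.07 and values of -0.17 and 0.09, and the mean of all 4 gave 0.13. The iron-sulphur subunit Sdhb was at 0.13 ± 0.13, and the membrane anchors Sdhc and Sdhd were at 0.11 ± 0.08 and -0.02 ± 0.09. The dimmer probe set of Sdhd, with a mean of 8.50, had the opposite sign (0.24 ± 0.11, adjusted p = 0.38) with overlapping groups.

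Complex III passes electrons from coenzyme Q to cytochrome c, and all 8 members lay within 0.2 of 0. Of these 7 were positive, with a median of 0.06. The scaffold subunits Uqcrc1 and Uqcrc2 had opposite signs although neither overlapped between groups. Uqcrc1 read 11.56, 11.53 and 11.55 in shControl and 11.65, 11.70 and 11.64 in shAtoh8 (0.12 ± 0.07 SE, limma adjusted p = 0.574). Uqcrc2 read 11.24, 11.1725 and 11.22 against 11.166, 11.13 and 11.14 (-0.06 ± 0.07, 0.802), so its groups barely separated. On its second probe set the groups overlapped (-0.04 ± 0.10). Uqcrb was at 0.13 ± 0.08, and the Rieske iron-sulphur protein Uqcrfs1 and the hinge protein Uqcrh were both at 0.02.

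Complex IV held the largest difference of all members. Cox7a1 read 7.37, 7.72 and 7.28 in shControl and 6.65, 7.07 and 6.61 in shAtoh8. Every shAtoh8 array was below every shControl array, and the 3 pairs differed by -0.72, -0.65 and -0.67. The fold change was -0.68 ± 0.16 (SE), 1.61-fold lower, from 7.46 ± 0.23 to 6.77 ± 0.26 (SD, n = 3). It missed the threshold in limma without the block (adjusted p = 0.118) and passed with it (0.0225). Cox7a1 was read by only 1 probe set, so no second reading was at hand. With single arrays left out the value lay between -0.83 and -0.55.

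**Figure D3:**
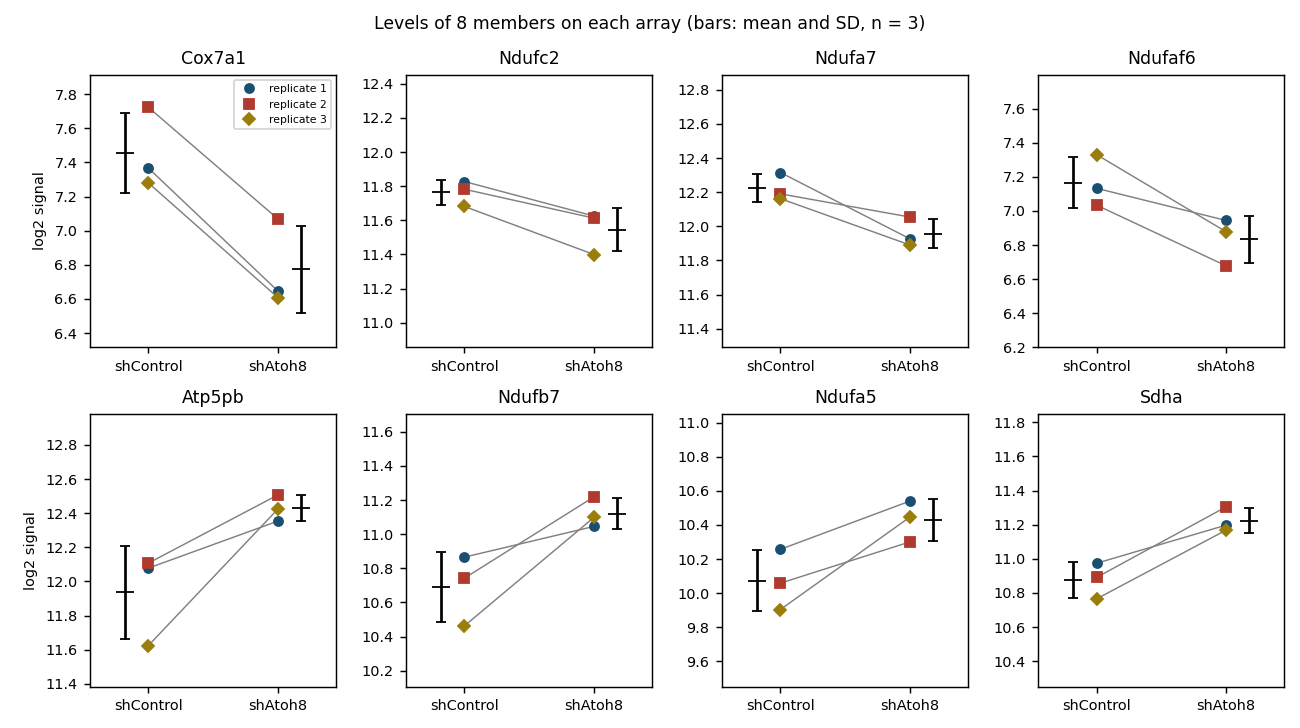
Level of 8 members on each array (log2 signal, y axes of equal span), with lines joining arrays of the same replicate number and bars giving the mean and SD of 3. The 3 lines of Cox7a1 run down in parallel by 0.65 to 0.72, while those of Atp5pb run up by 0.28 to 0.80, the steepest from the low shControl replicate 3.

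None of the other 18 members of complex IV passed with or without the block. Of all 19, 15 were positive and 4 negative, with a median of 0.07 and pair medians of -0.01, 0.06 and 0.11. Cox5a and Cox5b, both on the matrix side of the enzyme, were at 0.16 ± 0.08 and 0.18 ± 0.09 (limma adjusted p = 0.438 and 0.461), each without overlap. Cox6c read 12.14, 12.09 and 11.98 against 12.27, 12.24 and 12.30, also without overlap (0.19 ± 0.08, 0.348). Cox7c was at 0.39 ± 0.15 (0.321) with overlapping groups, on a probe set with a mean of only 5.39. Ndufa4, once counted in complex I and now as a subunit of complex IV, was at 0.17 ± 0.13 (0.690).

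Among the isoform groups of complex IV, Cox7a1 was the member that passed the blocked fit. Its ubiquitous counterpart Cox7a2 read 12.83, 12.80 and 12.66 in shControl and 12.83, 12.91 and 12.73 in shAtoh8, a difference of 0.06 with a 95% interval of -0.15 to 0.27. The supercomplex factor Cox7a2l was at -0.01 ± 0.12. Cox4i1, the ubiquitous form, was at 0.08 ± 0.09, and Cox4i2, the form of lung that responds to low oxygen, at 0.08 ± 0.12 on a probe set averaging 4.88 and 4.97. The pairs Cox6a1 and Cox6a2 (0.07 and 0.01) and Cox6b1 and Cox6b2 (0.07 and 0.07) lay as close to 0. So did Cox8a, Cox8b and Cox8c (0.03, 0.04 and 0.05), the testis form Cox7b2 (-0.04) and Ndufa4l2, a gene known to respond to low oxygen (-0.03, 95% interval -0.24 to 0.17). Several of these probe sets were dim, against a median probe set mean of 5.52. In shControl and shAtoh8, Cox7b2 averaged 3.28 and 3.24, Cox6b2 4.41 and 4.48, and Cox8b 5.42 and 5.46. Ndufa4l2, at 6.02 and 5.98, lay little above that median. Values near 0 on such probe sets carry little information on the isoforms.

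**Figure D4:**
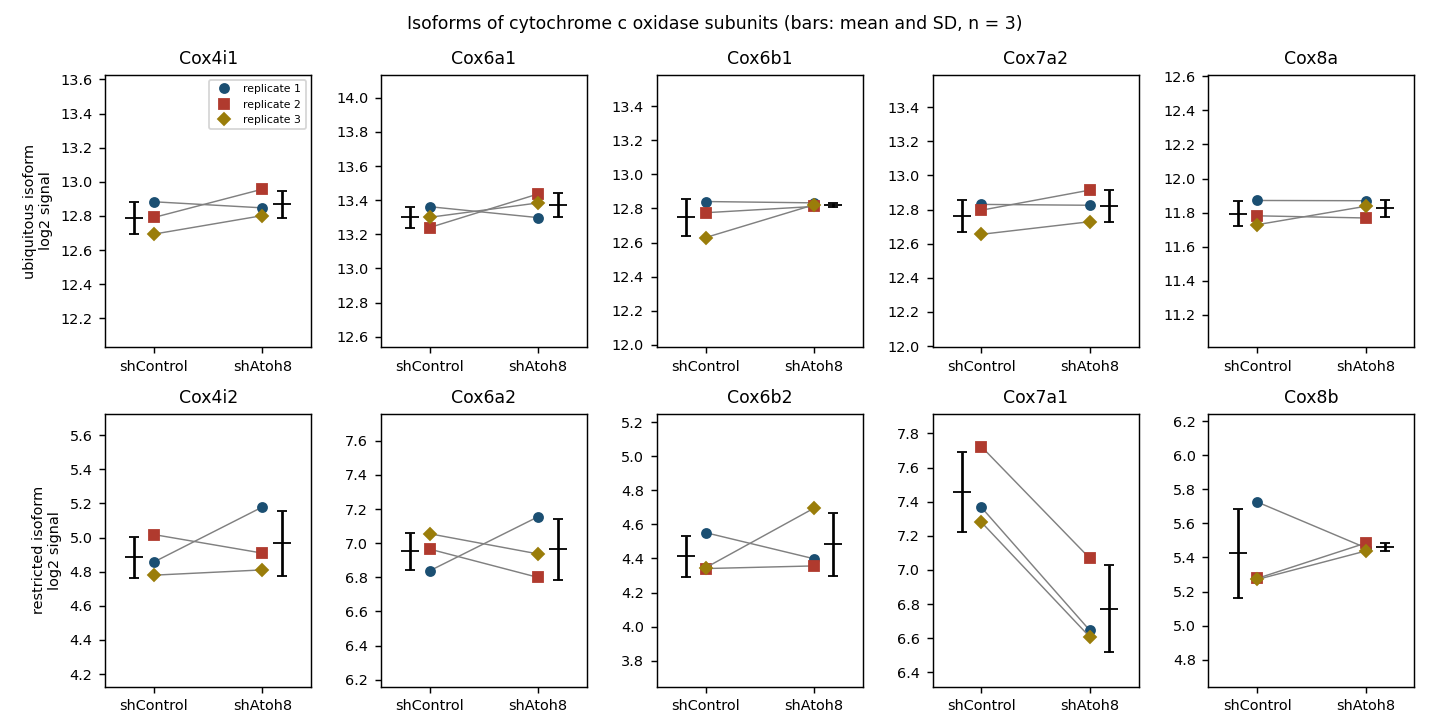
Ubiquitous (top) and tissue-restricted (bottom) isoforms of 5 complex IV subunits on each array (log2 signal, y axes of equal span), with lines joining replicate numbers and bars giving the mean and SD of 3. Cox7a1 separates the groups, at 7.46 and 6.77 on average; the other 9 genes overlap.

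Complex V couples a catalytic head to a membrane rotor through a central and a peripheral stalk. Its catalytic subunits Atp5a1 and Atp5b were at -0.05 ± 0.09 and -0.04 ± 0.07 (SE), and of all 17 members 10 were positive, with a median of 0.03 and pair medians of -0.07, 0.05 and 0.14. Atp5pb, the b subunit of the peripheral stalk, read 12.08, 12.11 and 11.62 in shControl and 12.35, 12.51 and 12.42 in shAtoh8. All shAtoh8 arrays were higher, and shControl replicate 3 was the lowest array. The difference was 0.49 ± 0.14, 1.41-fold (limma adjusted p = 0.168, and 0.0889 with the block). Its second probe set read 11.35, 11.27 and 10.92 against 11.83, 11.75 and 11.78, a difference of 0.61 ± 0.12 that passed with the block (0.0437) and not without it (0.0780). Without shControl replicate 3, the first probe set gave 0.34.

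Atp5h, the d subunit of the same stalk, was at 0.21 ± 0.10 (SE; limma adjusted p = 0.436) without overlap. The 3 genes for the ring of c subunits, Atp5g1, Atp5g2 and Atp5g3, encode the same mature protein and had values of 0.12 ± 0.11, -0.13 ± 0.09 and -0.02 ± 0.09. None of them was separate between the groups. Atp5e, of the central stalk, was at -0.06 ± 0.09, and the rotor subunit Atp5c1 at -0.02 ± 0.10.

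Across probe sets, 51 members had more than 1, and all had the same sign for 33 of these. The probe sets that read 43 members end in _x_at, _s_at or _a_at. Several of these genes have processed pseudogenes, and signal from copies cannot be told apart where probes match them. Without such probe sets, 72 members were measured, 0 were called and the median was 0.05.

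The rest of the pathway was examined in lists of 130 symbols, of which 111 genes were measured. Over these 111 genes the median was 0.04, and 1 passed higher and 0 lower in limma (against 0.517% and 0.638% of genes). At an unadjusted p under 0.05 there were 12 higher and 9 lower, against 8.72% and 8.82% of genes. With the replicate block 1 rose and 6 fell, against 1.92% and 2.75% of genes. The gene that rose in both was Cox19, which acts in copper delivery to complex IV. Cox19 read 9.19, 8.95 and 8.76 in shControl and 9.82, 9.87 and 9.82 in shAtoh8, a difference of 0.87 ± 0.12 (SE) or 1.83-fold (limma adjusted p = 0.0346). All shAtoh8 arrays lay above all shControl arrays. Cox19 also passed in all 7 alternative fits that kept the 6 arrays. The call was lost with any of the 6 arrays left out (values 0.77 to 0.98, adjusted p up to 0.152). Calls over all genes fell as well in those fits, from 94 higher to between 0 and 41, with fewer degrees of freedom.

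Cox19 belongs to the list of complex IV assembly factors, where 13 of 18 measured genes were positive (against 53.1% of all genes), with a median of 0.10, and 10 were higher without overlap (against 12.6% of all genes). Without being called, Pet100 (0.52 ± 0.14 SE, limma adjusted p = 0.144), Lrpprc, which stabilises mitochondrial mRNAs (0.37 ± 0.10, 0.149), and Cox15, of heme synthesis (0.32 ± 0.10, 0.191), did not pass. Among the 21 assembly and supercomplex factors of the other complexes the median was 0.10, and Higd1a fell with the block (-0.55 ± 0.21, adjusted p = 0.301 without it and 0.0380 with it). Tmem126b (0.42 ± 0.14, adjusted p = 0.223) and Timmdc1 (0.39 ± 0.13, 0.245), both needed to build complex I, did not pass.

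The other 5 genes that fell with the block came from 3 lists. Gpd2, the mitochondrial glycerol-3-phosphate dehydrogenase that delivers electrons to coenzyme Q, read 10.77, 10.80 and 10.92 in shControl and 10.41, 10.22 and 10.27 in shAtoh8 (-0.53 ± 0.09 SE, limma adjusted p = 0.0529, and 0.0426 with the block). Coq2, of coenzyme Q synthesis, read 8.74, 8.63 and 8.63 against 7.93, 8.30 and 7.85 (-0.64 ± 0.13, 0.0791 and 0.0484). In both genes the groups did not overlap. The pyruvate dehydrogenase phosphatase Pdp2 (-0.43 ± 0.07, 0.0547 and 0.0485) and the opposing kinases Pdk1 (-0.71 ± 0.23, 0.214 and 0.0292) and Pdk3 (-0.49 ± 0.18, 0.274 and 0.0404) fell as well. The citric acid cycle and pyruvate dehydrogenase list as a whole had 13 of 22 genes positive and a median of 0.06.

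The lists of regulators and exchangers held no called gene, with or without the block. The 19 biogenesis regulators and mitochondrial DNA genes had a median of -0.05 with 6 positive. Ppargc1a, a coactivator of respiratory genes, was at 0.27 ± 0.11 (SE; limma adjusted p = 0.317). Polg, the mitochondrial DNA polymerase, was at -0.63 ± 0.12 (0.0675, and 0.0554 with the block) without overlap. The 10 measured genes of nucleotide and phosphate exchange and uncoupling all lay within 0.3 of 0, with a median of -0.02. The single mitochondrially encoded subunit read here, ND5 of complex I, was at 12.33, 12.58 and 12.03 in shControl and 12.70, 12.48 and 12.78 in shAtoh8, with overlap (0.34 ± 0.15, 0.388).

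**Figure D5:**
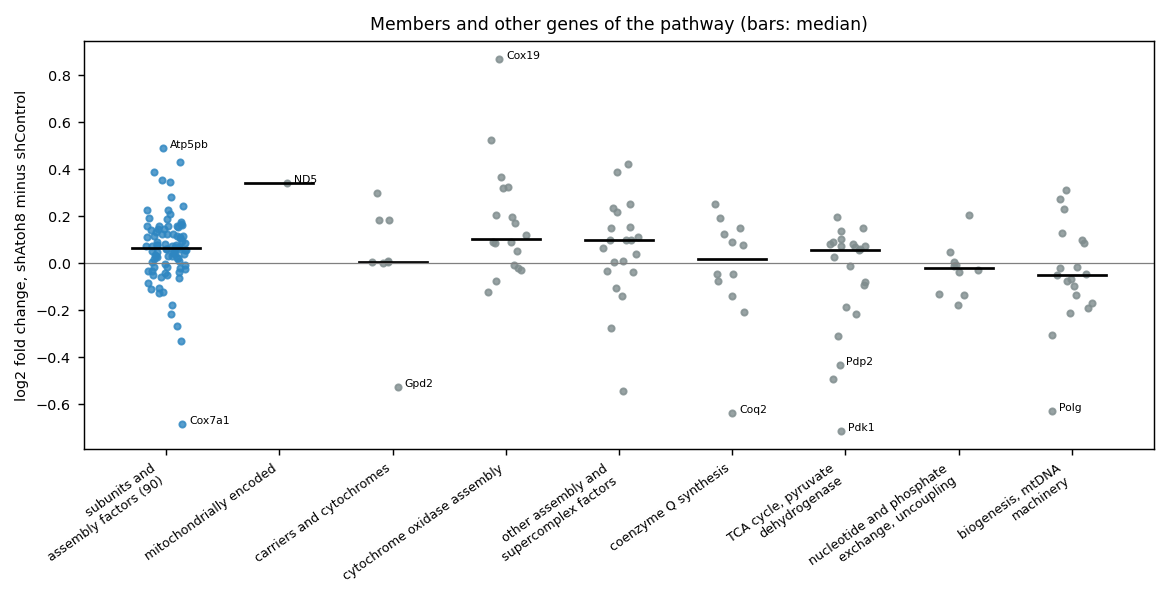
Log2 fold change (shAtoh8 minus shControl) of the 90 members and of each list of other pathway genes, 1 point a gene, with the median as a bar and sideways scatter for legibility only. List medians lie between -0.05 and 0.10 apart from the single gene ND5, and Cox19 stands at 0.87.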

How the data were processed

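Biotin-labelled cRNA from 6 samples was read on Affymetrix mouse arrays. The authors deposited 1 log2 signal for each probe set and array, made with RMA and affy per the submitters' processing notes, whose versions are not stated there. RMA quantile-normalises the arrays, so a shift common to most genes would be removed. Of 45101 probe sets, 64 controls were left out and 45037 tested; 34945 had 1 symbol in the platform annotation, 932 several and 9160 none. All 90 member symbols matched RefSeq (GRCm38.p6) by Entrez ID.

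The test was limma 3.58.1 in R 4.3.3 (lmFit, eBayes; 4 residual and 3.30 prior degrees of freedom), two-sided, with Benjamini-Hochberg adjustment over all probe sets and a threshold of 0.05. The number of arrays limits the precision. Members, lists and the naming rule (class extremes, isoform groups, called genes, smallest p per list) were chosen with earlier results of these data known; genes outside that rule were named after their values were seen. Deviations from group means correlated at 0.407, 0.187 and 0.433 over all probe sets between arrays of the same replicate number. Between arrays of different numbers the correlations ran from -0.351 to 0.0292. Over the members alone they were 0.161, 0.515 and 0.379 for the same number, and -0.435 to 0.0521 for different numbers. The numbers were taken to pair the arrays, and blocked values stand where a call changes. Alternatives covered scaling, brightness, probe set choice, variance model, weights, thresholds and left-out arrays.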

Additional observations from a re-analysis of the deposited data

How the results depend on the processing

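The count of members called was 0 higher and 0 lower under each alternative run at the 0.05 threshold, except that the replicate block called 1 lower (Cox7a1); an unadjusted p under 0.05 gave 7 and 3. With 1 array left out the counts stayed at 0. Over all genes the calls (94 higher, 116 lower) were 349 and 500 with the replicate block, 146 and 178 with brighter probe sets, 193 and 266 with averaged probe sets, 153 and 186 with array weights, and 0 to 41 and 0 to 76 with 1 array left out. Fewer arrays leave fewer degrees of freedom, so these last counts are lower by construction in part.

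Among other pathway genes, 1 called higher became 12 at an unadjusted p under 0.05 and 0 with any array left out. The 0 called lower became 6 with the replicate block, 2 with brighter probe sets, 3 with averaged probe sets, 1 with the trend and robust variance, 3 with array weights, 4 with the adjusted threshold at 0.10, 9 with unadjusted p-values under 0.05, and 0 to 1 with 1 array left out. The median of the complex I assembly factors was 0.0074 with median centring and -0.046 to 0.086 with 1 array left out. Complex III had 4 positive members of the 6 still measured without _x_at, _s_at and _a_at probe sets. The cause of these changes was not tested. Median centring moved the median of all genes from 0.01 to -0.01. Of 45 named members, 15 changed sign in some alternative, and all 15 were uncalled throughout.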
